A study of Homo sapiens with 2 samples.

Results

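The genes described here are those of the MYB transcription factor family (MYB, MYBL1 and MYBL2), the forkhead factor gene FOXM1, the core subunit genes of the MuvB complex (LIN9, LIN37, LIN52, LIN54 and RBBP4) and the pocket protein gene RBL2, which joins that complex. They were taken by name, 10 of the 58884 genes in the count table, and all 10 had at least 20 counts over both libraries together, as did 18078 genes in all. They were picked with the comparison below already known, so their own ratios are a description and carry no test. The series compares SAS cells, a tongue squamous carcinoma line, that received a lentivirus with a hairpin against KDM4C (shKDM4C) with SAS cells that received the pLKO.1 control vector (LKO, labelled wild type). Both kinds of cells were selected with puromycin, grown in DMEM with serum and harvested for RNA after a night in culture. The study made 2 hairpins, and which of them the sequenced cells carried is not given in the sources used here. Each condition is 1 library, so nothing measures the spread between cultures. Every interval below covers counting error only, and reads copied in PCR are not independent molecules.

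MuvB is a set of core proteins that takes different partners through the cell cycle. With RBL2 (p130) or RBL1 (p107) and E2F4 or E2F5 it forms the DREAM complex, which holds cell cycle genes silent in resting cells. In S phase it is joined instead by B-MYB, the product of MYBL2, and later by FOXM1, and then takes part in switching on the genes of G2 and mitosis. LIN54 binds a short DNA element in those promoters, the cell cycle genes homology region or CHR. LIN52 contacts the pocket proteins, LIN9 holds the subunits together and LIN37 is needed for repression. RBBP4 is a histone-binding protein that also belongs to other chromatin complexes. MYB is best known from blood progenitors, and MYBL1 from meiosis of male germ cells in mice.

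The count table sums to 50627096 reads for shKDM4C and 57626616 for LKO. KDM4C itself had 242 counts in shKDM4C and 1047 in LKO, 27.8% of the LKO level. All 10 squamous epithelial markers looked at, such as KRT5 and TP63, were detected, with 622 to 23330 counts in shKDM4C and 362 to 27179 in LKO. Of these markers, 3 were called lower and 1 higher. The summed level of 6 fibroblast markers was 5.89 scaled counts per 1000000 (CPM) in shKDM4C and 4.60 in LKO, and that of 6 blood markers 0.650 CPM in shKDM4C and 0.321 in LKO, with HBB and CD3E at 0 in both. That of 4 endothelial markers was 3.70 CPM in shKDM4C and 1.30 in LKO. Of these markers of other cell types, 1 of 2 tested was called higher for fibroblasts (COL1A1, 123 counts in shKDM4C and 97 in LKO) and 1 of 2 for blood (CD14, 16 counts in shKDM4C and 4 in LKO). All 3 tested endothelial markers were called higher, CDH5 with 67 counts in shKDM4C and 16 in LKO, PECAM1 with 57 in shKDM4C and 22 in LKO, and VWF with 56 in shKDM4C and 39 in LKO. The part of these markers in the results was not tested. Ratios are those of shKDM4C over LKO after scaling both libraries by the trimmed mean of M-values (TMM), and calls of lower or higher needed a difference of at least 1.5-fold and a 95% counting interval without equality. Of the 10 genes, 3 were called lower (MYB, MYBL2 and RBL2) and 0 higher, where 15.7% of all tested genes were called lower and 13.0% higher. The choice of the genes used this contrast, so these shares are given side by side only. In RNA from whole cultures, fewer cells in a cell cycle phase and less RNA per cell cannot be told apart.

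**Figure D1:**
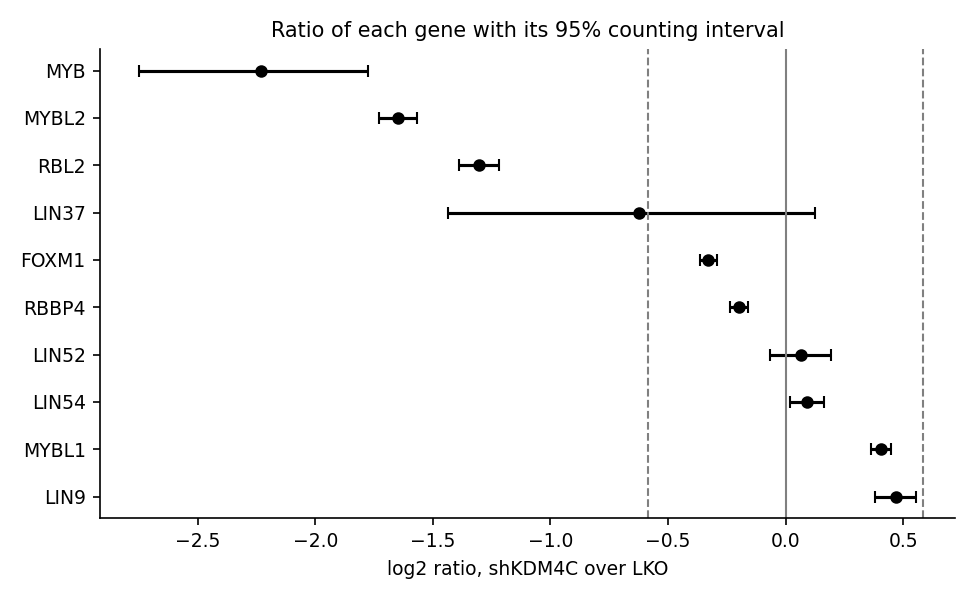
Log2 ratio of shKDM4C over LKO for each of the 10 genes (x axis), with points for the ratio and bars for the 95% counting interval. Dashed lines mark 1.5-fold in each direction, and MYB, MYBL2 and RBL2 lie wholly beyond the lower one.

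The MYB family members differed. MYBL2 (chr20:43667019-43716495, plus strand, GRCh38 as for all positions), the member used by dividing cells, had 1583 counts in shKDM4C and 5953 in LKO, or 32.1 against 101 CPM. This put MYBL2 at 31.9% of the LKO level and its log2 ratio at -1.65, with a 95% counting interval of -1.73 to -1.57. Of all tested genes, 393 had a ratio as low or lower, MYBL2 included, and 21 of the 6968 genes averaging 1000 counts or more did. MYB (chr6:135181308-135219173, plus strand) had only 43 counts in shKDM4C and 245 in LKO, 0.873 against 4.14 CPM. Its log2 ratio of -2.23 (interval -2.75 to -1.77) was the lowest of the 10, with the widest interval among the 3 genes called lower. MYBL1 (chr8:66562175-66614247, minus strand) lay on the other side of equality, with 9064 counts in shKDM4C and 8215 in LKO, 184 against 139 CPM. The log2 ratio of MYBL1, 0.41 (interval 0.36 to 0.45), was under the 1.5-fold limit.

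The balance between MYBL2 and MYBL1 can be read within each library, where no scaling enters. There were 0.175 counts of MYBL2 for each count of MYBL1 in shKDM4C, against 0.725 in LKO, a log2 change of -2.05 (interval -2.14 to -1.96). Divided by exon length, MYBL1 made up 68.4% of the family's summed level in shKDM4C and 34.1% in LKO. MYBL2 made up 31.2% in shKDM4C and 64.5% in LKO, and MYB 0.427% in shKDM4C and 1.34% in LKO. The most abundant family member per length was thus MYBL1 in the shKDM4C library and MYBL2 in the LKO library. The same order held in both libraries when the canonical transcript length was used in place of all annotated exons, a setting chosen after seeing the data, with MYBL1 at 74.4% in shKDM4C and 40.9% in LKO. The 3 genes with at least 1000 counts on average whose ratio lay nearest to that of MYBL2 were TCAF1, IDH1 and CEP57, at -1.65, -1.64 and -1.63. With 1 library per condition, this likeness is that of a single ratio.

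The promoters of the 3 genes called lower, and that of LIN52, whose level was nearly equal in both libraries, are shown because MYBL2 is itself a known target of E2F factors. The sequences are the 250 bases before the RefSeq start in GRCh38.p14, which coincided with the canonical start for each, and 8 of the 10 genes were found in that table, all but MYBL1 and FOXM1. Capitals mark TTGGCGGGA, an E2F-type word added after the promoters of MYB and MYBL2 had been read, the E2F word TTTCCCGC, and the CHR word TTTAAA, on either strand.
MYB, chr6:135181058-135181307, plus strand: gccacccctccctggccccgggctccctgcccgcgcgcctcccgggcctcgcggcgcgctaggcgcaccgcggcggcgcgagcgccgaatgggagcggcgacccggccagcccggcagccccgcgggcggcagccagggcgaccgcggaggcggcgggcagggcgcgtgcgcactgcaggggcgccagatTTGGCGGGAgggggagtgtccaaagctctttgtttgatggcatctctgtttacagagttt
MYBL2, chr20:43666864-43667113, plus strand: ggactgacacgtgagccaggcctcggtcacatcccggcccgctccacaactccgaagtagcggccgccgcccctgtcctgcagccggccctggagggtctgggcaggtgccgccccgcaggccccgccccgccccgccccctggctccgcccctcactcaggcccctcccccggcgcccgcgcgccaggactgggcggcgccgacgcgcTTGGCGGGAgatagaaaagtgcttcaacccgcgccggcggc
RBL2, chr16:53434221-53434470, plus strand: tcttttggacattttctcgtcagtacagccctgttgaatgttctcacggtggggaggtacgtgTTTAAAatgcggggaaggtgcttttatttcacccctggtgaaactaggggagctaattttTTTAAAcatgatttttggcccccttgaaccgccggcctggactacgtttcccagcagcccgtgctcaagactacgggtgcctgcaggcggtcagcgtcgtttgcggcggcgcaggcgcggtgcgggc
LIN52, chr14:74084706-74084955, plus strand: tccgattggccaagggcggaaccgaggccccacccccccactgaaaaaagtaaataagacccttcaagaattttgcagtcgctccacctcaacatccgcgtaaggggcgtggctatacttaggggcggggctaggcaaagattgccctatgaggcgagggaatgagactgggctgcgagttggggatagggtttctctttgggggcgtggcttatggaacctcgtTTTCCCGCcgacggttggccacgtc

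MYB and MYBL2 both hold TTGGCGGGA, starting 60 bases before the start of MYB and 41 before that of MYBL2. This word was found in the 300-base promoter, 250 bases before to 50 after the start, of 94 of 27305 genes, or 0.344%. Since it was picked from these promoters, its presence there is no finding. Of the words chosen earlier, the E2F words (TTTCGCGC or TTTGGCGC or TTTCCCGC) occur in 2.81% of promoters and, among the genes matched, in LIN52 alone. The CHR words (TTTGAA or TTTAAA or TTCGAA) occur in 24.8% of promoters and in those of LIN9, LIN54 and RBL2. RBL2, called lower, and LIN9, with a ratio above 0, thus both hold a CHR word. The MYB words (CAACGG or CAACTG or TAACGG or TAACTG) occur in 25.7% of promoters and in that of LIN9 alone. The forkhead words (GTAAACA or ATAAACA) occur in 7.27% and in that of MYB alone. CCAAT occurs in 35.7% and in the promoters of LIN37, LIN52 and RBBP4. All words were sought on both strands, the word TTGGCGGGA can overlap TTTCCCGC on the other strand, and a match is no evidence of binding. The GC content of the bases shown was 75.6% for MYB, 76.8% for MYBL2, 55.2% for RBL2 and 57.6% for LIN52, against a median of 58.4% over all genes in the table.

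FOXM1 was the most abundant of the 10 genes per length in both libraries. FOXM1 (chr12:2857680-2877174, minus strand) had 10194 counts in shKDM4C and 15363 in LKO, 207 against 259.8 CPM. That was 79.7% of the LKO level, a log2 ratio of -0.33 (interval -0.36 to -0.29). Its interval did not hold 0, but the difference was short of the 1.5-fold limit. Within a library there were 0.155 counts of MYBL2 per count of FOXM1 in shKDM4C and 0.387 in LKO, a log2 change of -1.32 (interval -1.41 to -1.23). The partners that join MuvB in S phase and in G2 therefore differed in how far they were lower. The gene RHNO1 starts 49 bases from FOXM1 on the other strand and had 3286 counts in shKDM4C and 4440 in LKO, a log2 ratio of -0.17 (interval -0.24 to -0.10).

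None of the MuvB core genes was called, where 15.7% of all tested genes were called lower and 13.0% higher. So few genes make this count no result about the core. LIN9 (chr1:226231149-226309869, minus strand) had 2360 counts in shKDM4C and 2048 in LKO, a log2 ratio of 0.47 (interval 0.38 to 0.55), the highest of the 10. LIN54 (chr4:82909973-83012926, minus strand), the DNA-binding subunit, had 3084 counts in shKDM4C and 3476 in LKO, a log2 ratio of 0.09 (interval 0.021 to 0.16). LIN52 (chr14:74084956-74201493, plus strand) had 934 counts in shKDM4C and 1073 in LKO, with a log2 ratio of 0.06 whose interval, -0.064 to 0.19, held 0. The core subunits LIN9, LIN52 and LIN54 thus lay at or above the LKO level after TMM scaling, while with total counts the LIN52 ratio was -0.013. The other core genes, RBBP4 and LIN37, had log2 ratios below 0, of -0.20 and -0.62, and the interval of LIN37 held 0. LIN54 and LIN52 kept nearly the same proportion, with 0.303 counts of LIN52 per count of LIN54 in shKDM4C and 0.309 in LKO, a log2 change of -0.03 (interval -0.17 to 0.12). Set against LIN9, LIN54 was lower in shKDM4C, with 1.31 against 1.70 counts per count of LIN9, a log2 change of -0.38 (interval -0.49 to -0.27).

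RBBP4 (chr1:32651142-32686211, plus strand) had 9308 counts in shKDM4C and 12825 in LKO, 189 against 217 CPM, and a log2 ratio of -0.20 (interval -0.24 to -0.16). Its paralog RBBP7, which shares its place in several chromatin complexes, had 23646 counts in shKDM4C and 40923 in LKO, a log2 ratio of -0.53 (interval -0.55 to -0.50). Counts of RBBP4 per count of RBBP7 were 0.394 in shKDM4C and 0.313 in LKO. The 7 annotated processed copies of RBBP4 had 0 to 5 counts in shKDM4C and 0 to 7 in LKO.

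LIN37 had the fewest counts of the 10 genes in both libraries. LIN37 (chr19:35748361-35754519, plus strand) had 23 counts in shKDM4C and 43 in LKO, and its log2 ratio of -0.62 had an interval from -1.44 to 0.12. Of the 935 exon bases of its canonical transcript, 80.4% are also exon of another protein-coding gene on the same strand, ENSG00000188223, whose count was 0 in both libraries, and 43.9% of an antisense noncoding gene with 1 count in shKDM4C and 0 in LKO. How reads in such shared bases were assigned is not given in the sources used here, so the level of LIN37 is uncertain, and the part of the shared bases in its ratio was not tested.

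RBL2 (chr16:53433977-53491648, plus strand), which encodes the pocket protein of DREAM in resting cells, had 1559 counts in shKDM4C and 4619 in LKO, 31.7 against 78.1 CPM. This put RBL2 at 40.5% of the LKO level, a log2 ratio of -1.30 (interval -1.39 to -1.22). Among the 6968 genes averaging 1000 counts or more, 72 had a ratio as low or lower. RBL1, which can take its place in DREAM, had 3516 counts in shKDM4C and 5535 in LKO, a log2 ratio of -0.39 (interval -0.45 to -0.33). The counts of RBL2 per count of RBL1 were 0.443 in shKDM4C and 0.835 in LKO, a log2 change of -0.91 (interval -1.02 to -0.81). The other partners in DREAM lay closer to 0. E2F4, its main E2F, had a log2 ratio of 0.11, E2F5 -0.13 with 168 counts in shKDM4C and 221 in LKO, and the dimerization partners TFDP1 and TFDP2 -0.26 and -0.18. None of these 5 partners was called, where 15.7% of all tested genes were called lower and 13.0% higher. Such a count in 5 genes is no result about the partners. Their median was -0.18 beside -0.01 over all tested genes.

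**Figure D2:**
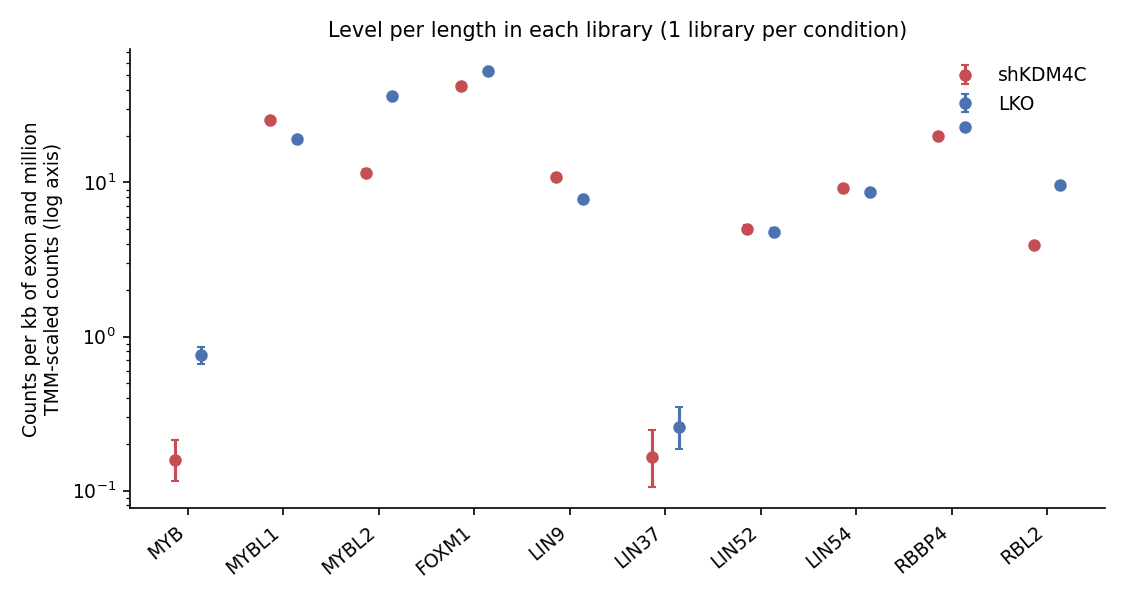
Level of each gene per kilobase of annotated exon and 1000000 scaled counts (log axis) in shKDM4C and LKO, with exact Poisson 95% intervals as bars. MYBL1 lies above MYBL2 in shKDM4C and below it in LKO.

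Per kilobase of exon and 1000000 scaled counts (RPKM), the order in shKDM4C was FOXM1 at 42.1, MYBL1 at 25.4, RBBP4 at 19.96, MYBL2 at 11.6, LIN9 at 10.8, LIN54 at 9.26, LIN52 at 5.00, RBL2 at 3.90, LIN37 at 0.166 and MYB at 0.159. The counting intervals of MYBL2 and LIN9 overlapped, as did those of LIN37 and MYB. In LKO the order was FOXM1 at 52.8, MYBL2 at 36.3, RBBP4 at 22.9, MYBL1 at 19.2, RBL2 at 9.63, LIN54 at 8.69, LIN9 at 7.80, LIN52 at 4.79, MYB at 0.754 and LIN37 at 0.258, with no neighbours overlapping. MYBL2 thus ranked 4 in shKDM4C and 2 in LKO, and RBL2 ranked 8 in shKDM4C and 5 in LKO. By canonical transcript length, MYBL2 and LIN9 changed places in shKDM4C, as did LIN9 and LIN54 in LKO.

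**Figure D3:**
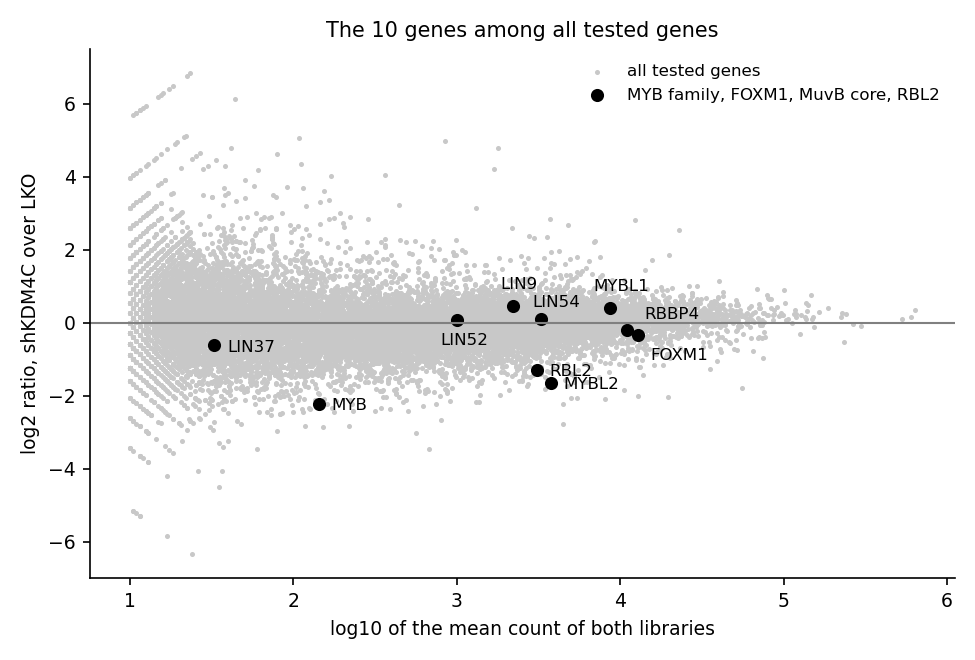
Log2 ratio of shKDM4C over LKO (y axis) against the log10 mean count of both libraries (x axis) for the 18078 tested genes (grey), with the 10 genes in black. MYB, MYBL2 and RBL2 lie near the lower edge at their count, and the other genes within the bulk.

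Genes next to these on the chromosome did not always share their ratio. ALDH6A1, an enzyme of valine breakdown, starts 503 bases from LIN52 on the other strand and was called lower, with 535 counts in shKDM4C and 1249 in LKO, a log2 ratio of -0.96 (interval -1.11 to -0.81). AKTIP meets RBL2 tail to tail, with 609 exon bases in common, and was also called lower, with 1488 counts in shKDM4C and 2743 in LKO and a log2 ratio of -0.62. ZBTB8OS, which starts 658 bases from RBBP4, had a log2 ratio of 0.42 (interval 0.30 to 0.53). SYNC, which overlaps the end of RBBP4 on the other strand, had 22 counts in shKDM4C and 49 in LKO and was called lower. ITFG2, which overlaps the end of FOXM1, had a log2 ratio of 0.15, and THAP9, which overlaps the end of LIN54, -0.14. MYB-AS1, antisense to MYB, had 0 counts in both libraries. The library kit marks strand, but the strand setting of the counting is not given in the sources used here, so reads in the overlaps are less certain.

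The hairpins were designed against KDM4C, and neither target matched any of the 10 canonical transcripts in full. Short words of 7 bases that pair with guide positions 2 to 12 were also sought in the 3′ untranslated regions. Of the 10 genes, 0 held such a word of shKDM4C#2, where 10.5% of 13242 genes did. For shKDM4C#1 it was LIN54 alone, where 17.4% of genes did. MYB, MYBL2 and RBL2 held none. Only canonical transcripts were searched, and the part of hairpin effects on other genes in these ratios was not tested.

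Genes described as targets were listed by phase from general knowledge. The G2/M list holds targets of MuvB with B-MYB and FOXM1, and the G1/S list those of DREAM and E2F. Of 55 genes of G2 and mitosis, 4 were called lower and 0 higher. This was 7.27% lower and 0% higher, where 15.7% of all tested genes were called lower and 13.0% higher. Their median log2 ratio was -0.14, beside -0.01 over all tested genes. The inner centromere protein gene INCENP was lowest, with 1701 counts in shKDM4C and 3769 in LKO, a log2 ratio of -0.88 (interval -0.97 to -0.80). The mitotic kinesin gene KIF20A had -0.70, GTSE1 -0.60 and the centromeric histone gene CENPA -0.63. The other 51 lay within 1.5-fold, from CDC25B at -0.57 to MAD2L1 at 0.41. Among them were the mitotic cyclin gene CCNB1 at -0.34 and the mitotic kinase gene PLK1 at -0.01. The list was mixed in direction, with 38 of the 55 genes below 0 and 17 above. Among 52 genes of the G1/S transition, 20 were called lower (38.5%, beside 15.7% of all tested genes) and 1 higher (1.92%, beside 13.0%). Their median was -0.42, beside -0.01 over all tested genes. The helicase subunit genes GINS1 and MCM5 had -1.30 and -1.08 and the factor gene E2F2 -1.24, while the phosphatase gene CDC25A was the one called higher, with 13761 counts in shKDM4C and 7415 in LKO and a log2 ratio of 1.16 (interval 1.12 to 1.20).

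**Figure D4:**
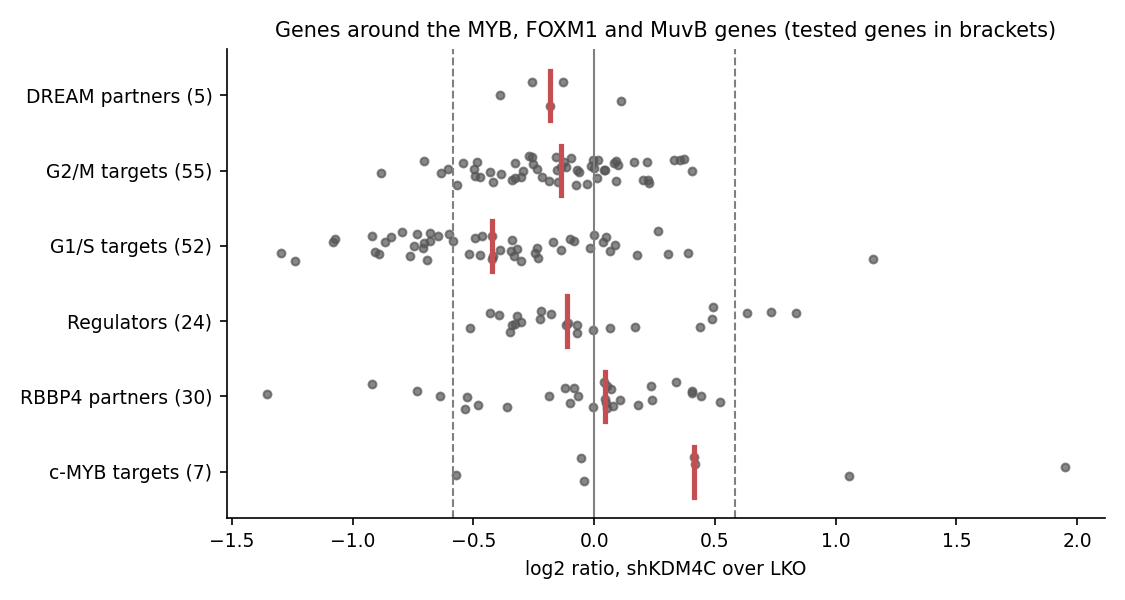
Log2 ratio of shKDM4C over LKO of every tested gene in 6 lists (grey points, spread vertically for visibility), with the median of each list as a red bar and dashed lines at 1.5-fold. The median lies at -0.42 for G1/S targets and at -0.14 for G2/M targets.

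Of 24 regulators of B-MYB, FOXM1 and MuvB, 0 were called lower (0%, beside 15.7% of all tested genes) and 3 higher. The 12.5% called higher was near the 13.0% of all tested genes, so that count is no result about the regulators. Their median was -0.11 beside -0.01. Those called were CDK6, a G1 kinase that acts on FOXM1 and the pocket proteins, with a log2 ratio of 0.83 (interval 0.81 to 0.85), the ubiquitin ligase subunit gene FBXW7 at 0.73, and DYRK1A at 0.63 (interval 0.57 to 0.69). DYRK1A is the kinase that phosphorylates LIN52 for DREAM assembly, and it had 5533 counts in shKDM4C and 4287 in LKO. The cyclin gene CCNA2 and the kinase gene CDK2, whose products phosphorylate B-MYB, had -0.43 and -0.30. The inhibitor gene CDKN1A had 0.49 (interval 0.39 to 0.60) and RB1 -0.18.

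RBBP4 serves in several complexes, and of 30 genes for its partners in them 4 were called lower and 0 higher. The 13.3% called lower was near the 15.7% of all tested genes, so that count is no result about the partners. The share called higher was 0%, beside 13.0% of all tested genes. Their median was 0.04 with TMM and -0.034 with total counts, beside -0.01 and -0.09 over all tested genes. The lowest was MTA1, a subunit of the NuRD complex, with 1813 counts in shKDM4C and 5570 in LKO, a log2 ratio of -1.36 (interval -1.43 to -1.28). Both large subunit genes of the histone chaperone CAF-1, CHAF1A and CHAF1B, were called lower at -0.92 and -0.74 and also belong to the G1/S list. EZH1 was also called lower at -0.64, whereas EZH2, its counterpart in dividing cells, had 0.18. Of 9 genes described as targets of c-MYB, the product of MYB, 7 had enough counts, and of these 0 were called lower and 2 higher (28.6% of 7 genes, beside 13.0% of all tested genes). Their median was 0.41, beside -0.01. PTGS2, a prostaglandin synthase, had 493 counts in shKDM4C and 153 in LKO, a log2 ratio of 1.95, and the transcription factor gene SNAI2 1.05. MYC had 0.41 and BCL2 -0.04, KIT had 0 counts in both libraries, and CD34 had 2 counts in shKDM4C and 10 in LKO.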

How the data were processed

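RNA-seq of SAS cells with 1 library per condition was analysed. The authors deposited raw read counts per gene. Per the methods and the submitters' processing notes, poly(A) libraries were sequenced in pairs, trimmed with Trimmomatic, aligned to GRCh38 with HISAT2 and counted with featureCounts. The sources used here give no tool versions, gene annotation or strand setting. The authors' own comparison (fold changes and p-values) was not used.

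Symbols, positions and exon lengths came from GENCODE v44 on GRCh38, which holds 58472 of the 58884 gene IDs, and promoters from RefSeq. TMM factors of 0.974 for shKDM4C and 1.03 for LKO came from edgeR 4.0.16 in R 4.3.3 over genes with at least 20 counts. Log2 ratios used a prior count of 0.5 and exact binomial (Clopper-Pearson) 95% intervals, and log2 changes of a ratio within a library used normal intervals. With 1 library per condition no p-value was computed. The calling code was run on simulated data, with recovery required of genes averaging at least 100 counts. This limit was set after a first run failed an earlier requirement on recovery, with part of the genes with fewer counts missed. The calling code was left as it was. The simulated counts held Poisson counting error only. The run therefore cannot show how the calls fare with spread between cultures or PCR copies. Alternatives were total counts, DESeq2 1.42.0 size factors, count minimums of 1 and 200, a prior of 5, a 99% interval and a 2-fold limit. Calculations used Python 3.11.15 with scipy 1.17.1.

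The genes and lists were chosen with earlier results of these data known, and the lists were written from general knowledge. Named are the 10 genes, KDM4C, RBBP7, genes that overlap one of the 10 or start within 1000 bases, up to 3 called genes per list and direction with a mean of at least 100 counts, ranked by the interval bound nearest to 0, and the 3 genes nearest to MYBL2. List genes outside this rule were named after their values were seen. They included CENPA, CDC25B, MAD2L1, CCNB1, PLK1, EZH1, EZH2, CCNA2, CDK2, CDKN1A, RB1, MYC, BCL2, KIT, CD34, the DREAM partners and the cell type markers.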

Additional observations from a re-analysis of the deposited data

How the results depend on the processing

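The ratios of the 10 genes moved little with scaling, filter or prior count. Over these settings MYBL2 ranged from -1.72 to -1.63, MYB from -2.31 to -2.12, RBL2 from -1.38 to -1.28 and LIN9 from 0.39 to 0.49, and 3 genes were called lower and 0 higher under every alternative run, the 2-fold limit included. With total counts in place of TMM, the median of all tested genes was -0.09 in place of -0.01, and MYBL1 had 0.33, FOXM1 -0.40, RBBP4 -0.28 and LIN54 0.01. The median of the RBBP4 partners then turned to -0.034, and 1 regulator and 1 c-MYB target (ADA) were called lower. With genes of at least 1 count kept, 1 c-MYB target was called lower and the median of that list was 0.16. At a 2-fold limit, 0 of 55 G2/M genes, 4 of 52 G1/S genes and 1 of 30 RBBP4 partners were lower. Of 24 regulators, 0 were higher. Over all tested genes 1348 (7.46%) were lower and 1404 (7.77%) higher, in place of 2840 and 2358. The count of G1/S genes called lower was then near the share of all tested genes, so at this limit it is no result about those genes. With at least 200 counts required, 1664 of 11656 genes (14.3%) were lower and 1053 (9.03%) higher. The share called higher that the lists are set beside thus depends on the count minimum. At this minimum 3 regulators, 0 G2/M genes and 1 G1/S gene were higher. Of the 98 counts of called genes under the alternatives, for the 10 genes and the lists, 91 stayed within 1.5 times the first value. Counts of 0 that stayed 0 are among these 91. LIN37 fell below the filter of 200 counts. No paired analysis was possible because each condition has 1 library, and no library could be left out.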

Other observations

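Among the G2/M genes, 41 of the 46 found in the promoter table hold a CHR word, 89.1% against 24.8% of all promoters, and among the 43 G1/S genes found 22 hold one of the E2F words (51.2% against 2.81%). The lists were written as targets of these factors, so this describes the lists. The G2/M genes with a CHR word had a median log2 ratio of -0.14 and the 5 without one -0.19. The word TTGGCGGGA of the MYB and MYBL2 promoters occurred in 5 of the 43 G1/S promoters, whose genes had a median of -0.70, and in 0 of the 46 G2/M promoters. The G1/S genes without it had a median of -0.37. The word was chosen after seeing the data, and 5 genes are too few to compare.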
